A study of Homo sapiens with 6 samples.

Results

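The genes described here make cholesterol, fatty acids and glycerolipids or control how those pathways are switched on. They were picked by gene name from a list of 54 genes, all of which were found among the 62703 genes listed for the series. The question was whether the desaturase gene SCD fell alone in cells that lack part of the DKK1 super-enhancer, or together with other targets of the SREBP transcription factors.

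Messenger RNA was measured by stranded sequencing in PANC-1, an established human pancreatic cancer cell line. The DKK1-SE-/- cells (labelled DKK1-SE-KO, gene edited) carry a homozygous CRISPR/Cas9 deletion of e1, a component enhancer of the DKK1 super-enhancer. The DKK1-SE+/+ cells (labelled WT, control) are PANC-1 cells without the deletion, and each group had 3 biological replicates. The study's paper states that the DKK1-SE-/- sequencing rests on 1 homozygous subclone, so the deletion and other properties of that subclone cannot be told apart. The total expected count per sample ran from 16475810 to 21822314.

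SREBP-1 and SREBP-2, encoded by SREBF1 and SREBF2, are membrane-bound transcription factors that are carried from the endoplasmic reticulum by SCAP, held back there by the INSIG proteins when sterol is plentiful, and cleaved by proteases to release the active part. SREBP-2 mainly drives genes of cholesterol synthesis, and SREBP-1c mainly drives genes of fatty acid synthesis and desaturation. The LXR nuclear receptors sense oxysterols and raise SREBF1, SCD and the cholesterol exporter genes ABCA1 and ABCG1. Pancreatic cancer cells are known to make fatty acids themselves and to use SCD to desaturate them.

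DKK1, whose enhancer was deleted, checked the labels. Its level was 229, 246 and 199 TPM (transcript abundance scaled within each library) in the DKK1-SE+/+ samples and 66.8, 79.8 and 82.7 TPM in the DKK1-SE-/- samples, and the groups did not overlap. In edgeR's quasi-likelihood test, DKK1 was 2.73-fold lower in the DKK1-SE-/- cells (log2 fold change -1.45, SE 0.11, Benjamini-Hochberg adjusted p = 6.2e-06). In bulk samples such as these, fewer cells of a type and less RNA per cell cannot be told apart. All 5 epithelial markers had a mean of at least 1 TPM, and their summed level was 1846, 1887 and 1923 TPM in the DKK1-SE+/+ samples against 3146, 3089 and 2659 TPM in the DKK1-SE-/- samples, with KRT8 the most abundant. KRT8 and KRT18 made up most of the sum, and KRT19, at 48.2, 53.8 and 59.8 TPM against 198, 172 and 146 TPM, rose most of the 5 on the log2 scale (log2 fold change 1.83), while KRT7 did not pass (log2 fold change 0.47) and EPCAM, at 4.81, 3.91 and 3.80 TPM against 1.70, 3.27 and 2.78 TPM, fell (-0.67) with the call held in 5 of 15 alternatives. Of the acinar, endocrine, fibroblast, endothelial, hepatocyte and adipocyte markers, none reached a mean of 1 TPM, and INS, ALB and ADIPOQ were listed at 0 in every sample. Of the 2 leukocyte markers, PTPRC was at most 0.04 TPM, and CD68, a lysosomal protein gene, was 43.2, 40.9 and 46.5 TPM against 67.9, 64.8 and 67.1 TPM. The part of these marker differences in the results for the lipid genes was not tested.

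SCD (ENSG00000099194, chr10:100347233-100364826 on hg38, plus strand) makes monounsaturated from saturated fatty acids. In DKK1-SE+/+ cells 322 of the 15179 tested genes had a higher mean TPM than SCD, and in DKK1-SE-/- cells 1405 did. Its level was 325, 367 and 358 TPM in the DKK1-SE+/+ samples (350 ± 22.1 TPM, SD, n = 3). In the DKK1-SE-/- samples it was 81.8, 71.8 and 84.0 TPM (79.2 ± 6.49 TPM, SD, n = 3). Every DKK1-SE-/- sample lay far below every DKK1-SE+/+ sample, and the values within each group were close together. SCD was 3.98-fold lower in the DKK1-SE-/- cells (log2 fold change -1.99, 95% interval -2.22 to -1.76, edgeR adjusted p = 4.0e-07). The 6 samples alone allow no exact two-sided permutation p below 0.1, which is the value SCD gave. Among the 15179 genes that passed the filter on low counts, 164 had a lower log2 fold change than SCD, and it was the lowest of the tested members.

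**Figure D1:**
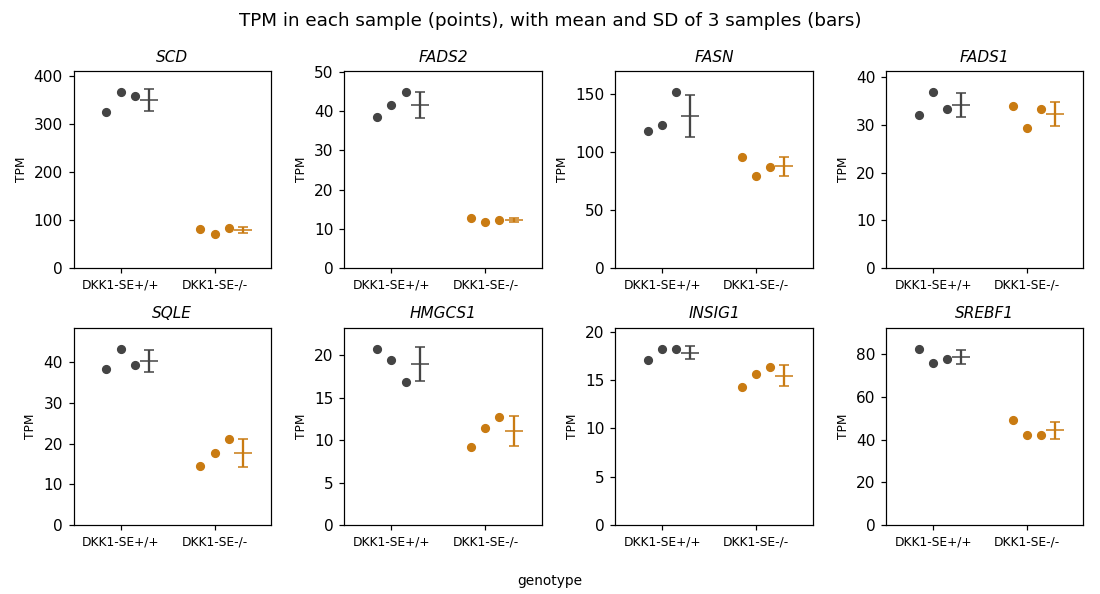
TPM of 8 members (y axis, from 0) in each DKK1-SE+/+ and DKK1-SE-/- sample (x axis). Points are samples, and the bars beside them give the mean and SD of 3 samples. The groups of SCD, FADS2, SQLE, HMGCS1, FASN, INSIG1 and SREBF1 do not overlap, and those of FADS1 do.

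SCD did not fall alone. Of the 54 members, 52 were tested, 22 of them fell and 9 rose at an edgeR adjusted p under 0.05, and 21 did not pass. Among all tested genes 19.5% fell and 19.8% rose at the same threshold, against 42.3% and 17.3% of the tested members. The median log2 fold change of the members was -0.32, beside 0.03 over all tested genes. An offset for the GC content of exons, described below, gave medians of -0.12 and 0.008. With both another test and another scale, limma on log2(TPM + 1), the counts were 22 members that fell and 3 that rose, with 17.6% of all tested genes lower and 9.82% higher. Without WT replicate 1, edgeR gave 19 members that fell and 4 that rose, beside 15.4% and 12.8% of all genes tested in that fit. Without DKK1-SE-KO replicate 3 it gave 27 and 13, beside 24.7% and 23.7%. THRSP, a regulator of fatty acid synthesis in liver and fat, was listed at 0 in all samples, and ABCG1 had too few counts to be tested, at 0.06 to 0.29 TPM.

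**Figure D2:**
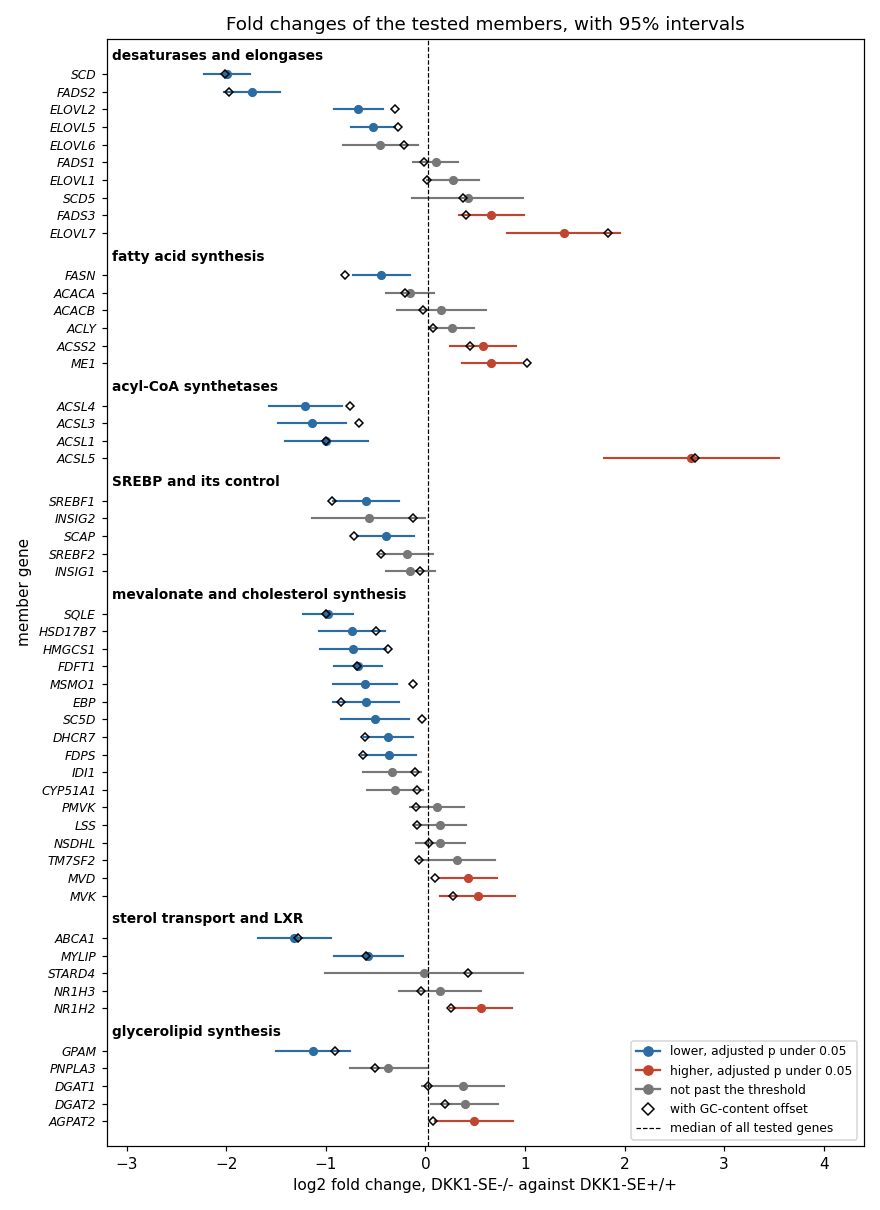
Log2 fold change of the 52 tested members (x axis, DKK1-SE-/- against DKK1-SE+/+), grouped by role (y axis), with 95% intervals from edgeR. Open diamonds are the values with a GC-content offset, a correction per library for the GC content of each gene's exons, and the dashed line is the median of all tested genes, 0.03. SCD and FADS2 lie furthest to the left and ACSL5 furthest to the right.

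Promoters gave a sequence feature that the choice of members did not use. RefSeq promoters of 300 bases (GRCh38.p14) were matched for 47 of the 54 members, with 67 promoters in all. FASN, FDFT1, SQLE, ABCG1, DGAT1, DGAT2 and PNPLA3 had no entry. CCAAT, the motif of the factor NF-Y that often sits beside SREBP sites, was found on either strand in 36 of the 67 (53.7%), beside 34.6% of 35116 promoters of all genes. By gene, CCAAT was found in 14 of 19 members that fell, 4 of 9 that rose and 13 of 18 that did not pass, beside 39.7% of 27305 genes with a promoter. The core of the sterol regulatory element, TCACNCCAC, was found on either strand in 2 of the 67 promoters, those of ACSL1 and SREBF2, beside 1.13% of all promoters. A match is a description of these letters in these windows only.

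Stretches of 60 bases upstream of the start site are printed for SCD, which the question is about, for HSD17B7, a sterol-arm gene that fell, and for INSIG1, one that did not pass. Capitals mark CCAAT or its reverse complement, on the gene's strand. The stretches lie at chr10:100347019-100347078 for SCD, chr1:162790622-162790681 for HSD17B7 and chr7:155297680-155297739 for INSIG1, all on the plus strand, and touch no annotated exon.
SCD: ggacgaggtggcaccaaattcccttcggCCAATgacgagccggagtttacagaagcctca
HSD17B7: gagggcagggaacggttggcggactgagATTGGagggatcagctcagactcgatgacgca
INSIG1: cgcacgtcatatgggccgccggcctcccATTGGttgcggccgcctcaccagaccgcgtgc

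Among the desaturases and elongases, which add double bonds to fatty acids or lengthen them, 4 of 10 fell, 2 rose and 4 did not pass. Their median log2 fold change was -0.18, and of all tested genes 19.5% fell and 19.8% rose. FADS2, the delta-6 desaturase that starts the synthesis of long polyunsaturated fatty acids, was 38.4, 41.5 and 44.9 TPM in the DKK1-SE+/+ samples and 12.7, 11.8 and 12.2 TPM in the DKK1-SE-/- samples. The groups were far apart, and the DKK1-SE-/- values were almost equal. FADS2 was 3.35-fold lower (log2 fold change -1.75, SE 0.13, edgeR adjusted p = 4.4e-06). FADS1, the delta-5 desaturase beside it on chromosome 11, was 32.1, 37.0 and 33.4 TPM against 33.9, 29.4 and 33.4 TPM. Its log2 fold change was 0.10 (95% interval -0.12 to 0.33), and it turned negative with the GC-content offset and on the TPM scale. FADS1 and FADS2 share 490 exonic bases on opposite strands, and whether the counting used strand is not given in the sources used here, so reads from the shared bases may have been assigned to either gene.

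The other desaturase of the SCD type, SCD5, was low throughout, at 1.58, 1.35 and 1.30 TPM in the DKK1-SE+/+ samples and 2.27, 1.37 and 1.62 TPM in the DKK1-SE-/- samples. The groups overlapped, and its log2 fold change of 0.42 (95% interval -0.13 to 0.98) did not pass. The mean TPM of SCD was 248 times that of SCD5 in DKK1-SE+/+ cells and 45.2 times in DKK1-SE-/- cells. ELOVL6, which lengthens palmitate and is a classic SREBP-1 target, was 3.19, 3.97 and 5.01 TPM against 2.59, 3.04 and 2.55 TPM, with a log2 fold change of -0.45 that did not pass (edgeR adjusted p = 0.0556). It passed in 5 of 15 alternatives, among them the one without DKK1-SE-KO replicate 3 (-0.54). With the GC-content offset ELOVL6 was at -0.22 and did not pass. ELOVL2 and ELOVL5, which lengthen polyunsaturated chains, fell with log2 fold changes of -0.67 and -0.52, and of -0.30 and -0.28 with the GC-content offset. ELOVL7 went the other way at a low level, from 0.550 ± 0.0866 TPM to 1.80 ± 0.534 TPM (SD, n = 3) without overlap (log2 fold change 1.39, SE 0.26, edgeR adjusted p = 0.0018), with a log2 fold change of 0.83 on log2(TPM + 1). FADS3, a desaturase-like gene beside FADS1 and FADS2, was the other member of this group that rose (0.66, and 0.40 with the GC-content offset), and it did not pass with limma on log2(TPM + 0.1) (0.46) or log2(TPM + 1) (0.43).

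Among the enzymes that supply and build the fatty acid chain, 1 of 6 tested genes fell, 2 rose and 3 did not pass. The shares of all tested genes were 19.5% lower and 19.8% higher. The median log2 fold change of the 6 was 0.21 (0.028 with the GC-content offset). FASN, the fatty acid synthase itself, was 118, 123 and 152 TPM in the DKK1-SE+/+ samples and 96.2, 79.9 and 87.6 TPM in the DKK1-SE-/- samples. The groups did not overlap, but one DKK1-SE+/+ sample stood above the other two. FASN was 1.36-fold lower (log2 fold change -0.44, 95% interval -0.73 to -0.16, edgeR adjusted p = 0.0198). The call was lost without DKK1-SE-KO replicate 2 (log2 fold change -0.39), without WT replicate 2 (-0.47) and without WT replicate 3 (-0.36). ACACA, the acetyl-CoA carboxylase that makes malonyl-CoA, was 27.0, 37.7 and 30.5 TPM against 26.1, 24.1 and 27.8 TPM. Its groups overlapped, and its log2 fold change of -0.15 (95% interval -0.39 to 0.09) did not pass, except without DKK1-SE-KO replicate 3 (-0.26). ME1, a cytosolic source of NADPH for lipid synthesis, rose from 11.7, 12.1 and 12.03 TPM to 13.9, 15.5 and 22.03 TPM (log2 fold change 0.66, SE 0.14, edgeR adjusted p = 0.0031). Its call did not pass with limma on log2(TPM + 0.1) (log2 fold change 0.49) or log2(TPM + 1) (0.46). ACSS2, which makes acetyl-CoA from acetate, also rose (0.58), at 8.07, 8.02 and 6.62 TPM against 12.24, 9.13 and 7.55 TPM with overlap. Its call was lost without WT replicate 1 (0.53), without WT replicate 3 (0.48) and with limma on log2(TPM + 0.1) (0.32) and log2(TPM + 1) (0.29).

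All 4 acyl-CoA synthetases, which activate fatty acids for use, passed the test. Of these, 3 fell and 1 rose, beside 19.5% and 19.8% of all tested genes, with a median log2 fold change of -1.07. ACSL4, which prefers polyunsaturated fatty acids, was 43.5, 48.6 and 46.2 TPM in the DKK1-SE+/+ samples and 12.1, 20.5 and 24.4 TPM in the DKK1-SE-/- samples (log2 fold change -1.21, SE 0.17, edgeR adjusted p = 0.00031). ACSL3, a lipid droplet enzyme, was 28.6, 29.6 and 28.5 TPM against 8.86, 11.4 and 18.6 TPM (log2 fold change -1.14). In both genes the groups did not overlap, and the DKK1-SE-/- samples were spread more widely than the DKK1-SE+/+ samples. ACSL1, which activates long-chain fatty acids, fell (log2 fold change -0.996). ACSL5 had only 6, 7 and 5 counts in the DKK1-SE+/+ samples and 28, 33 and 47 counts in the DKK1-SE-/- samples (log2 fold change 2.67, SE 0.40, edgeR adjusted p = 0.00051), and its call was lost with limma on log2(TPM + 0.1), where the log2 fold change was 1.46. On log2(TPM + 1) it was 0.54. In TPM its groups overlapped, at 0.64, 0.18 and 0.11 TPM against 0.63, 0.96 and 1.08 TPM. It shares 144 exonic bases with ZDHHC6 on the other strand, so its counts are uncertain. ZDHHC6 was at 28.0 TPM in DKK1-SE+/+ cells and 15.4 TPM in DKK1-SE-/- cells (log2 fold change -0.80).

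Of the 5 regulators of the pathway, 2 fell and 3 did not pass, beside 19.5% that fell and 19.8% that rose among all tested genes. The median log2 fold change of the 5 was -0.40. SREBF1, which also overlaps RAI1 on the other strand, was 82.7, 76.2 and 77.7 TPM in the DKK1-SE+/+ samples and 49.1, 42.1 and 42.1 TPM in the DKK1-SE-/- samples. No DKK1-SE-/- sample came near the DKK1-SE+/+ range, and SREBF1 was 1.52-fold lower (log2 fold change -0.60, SE 0.15, edgeR adjusted p = 0.0091). SREBF2 was 33.3, 37.9 and 39.9 TPM against 30.3, 26.6 and 27.9 TPM. Its log2 fold change of -0.19 (95% interval -0.46 to 0.08) did not pass. It passed in 5 of 15 alternatives, among them the GC-content offset (-0.44), limma on log2(TPM + 1) (-0.38) and the one without DKK1-SE-KO replicate 1 (-0.31). INSIG1, a target of SREBP that holds SCAP back, was 17.1, 18.3 and 18.2 TPM against 14.3, 15.7 and 16.4 TPM. All DKK1-SE-/- values lay below all DKK1-SE+/+ values, yet the log2 fold change was -0.15 (95% interval -0.40 to 0.09) and did not pass. SCAP fell (-0.40), but its call was lost without DKK1-SE-KO replicate 2 (-0.37) and without WT replicate 1, 2 or 3 (-0.47, -0.42 and -0.35). INSIG2 (-0.57) did not pass, except without DKK1-SE-KO replicate 3 (-0.83), and was at -0.13 with the GC-content offset.

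In the mevalonate and cholesterol pathway 9 of 17 genes fell and 2 rose, beside 19.5% and 19.8% of all tested genes, and 6 did not pass. The median log2 fold change of the 17 was -0.36. With a GC-content offset 7 fell and 0 rose, with a median of -0.11. SQLE, the squalene epoxidase that catalyses a rate-limiting step, was 38.2, 43.3 and 39.3 TPM in the DKK1-SE+/+ samples and 14.4, 17.8 and 21.2 TPM in the DKK1-SE-/- samples. Its groups were well apart, and it was 1.97-fold lower (log2 fold change -0.98, SE 0.12, edgeR adjusted p = 0.00011), the lowest of the 17. HMGCS1, which makes HMG-CoA at the start of the pathway, was 20.8, 19.4 and 16.8 TPM against 9.22, 11.4 and 12.7 TPM (log2 fold change -0.73, 95% interval -1.06 to -0.40, edgeR adjusted p = 0.0033). FDPS, which makes farnesyl diphosphate and was the most abundant of the 17, was 148, 124 and 127 TPM against 86.7, 102 and 89.0 TPM. The log2 fold change of FDPS was -0.36 (edgeR adjusted p = 0.035), and its call was lost when any one DKK1-SE+/+ sample was left out (log2 fold changes -0.31, -0.42 and -0.40 without WT replicate 1, 2 and 3).

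The other genes of the cholesterol pathway that fell were FDFT1, MSMO1, HSD17B7, EBP, SC5D and DHCR7, with log2 fold changes from -0.74 to -0.37. MVK and MVD, in the first part of the pathway, rose by 0.52 and 0.43 on the log2 scale. Calls here were fragile: those of MVK (log2 fold change 0.33 to 0.54) and MVD (0.34 to 0.45) were lost without any one sample except DKK1-SE-KO replicate 3, and each held in 5 of 15 alternatives. SC5D (-0.50 to -0.42) was lost without DKK1-SE-KO replicate 1 or 2 or WT replicate 1 or 2 and held in 7 of 15 alternatives, and DHCR7 (-0.39 to -0.34) without DKK1-SE-KO replicate 2 or WT replicate 2 or 3. With the GC-content offset MSMO1 (-0.13), SC5D (-0.03), MVK (0.28) and MVD (0.09) did not pass. PMVK, IDI1, LSS, CYP51A1, TM7SF2 and NSDHL did not pass, with log2 fold changes from -0.33 to 0.32, except that without DKK1-SE-KO replicate 3 IDI1 (-0.39), CYP51A1 (-0.45) and TM7SF2 (0.47) did, IDI1 also with library size alone (-0.40). The GC-content offset gave -0.11 for IDI1 and -0.08 for CYP51A1, and turned PMVK (-0.09), LSS (-0.09) and TM7SF2 (-0.07) negative. LSS, the enzyme after SQLE, was 22.8, 26.9 and 27.3 TPM against 28.9, 27.6 and 25.3 TPM. Exons of MVK, IDI1, FDPS and CYP51A1, and elsewhere among the members of NR1H3 and DGAT1, overlap those of a gene on the other strand. Those of CYP51A1, TM7SF2, PNPLA3 and FADS2 overlap a gene on the same strand, so reads from the shared bases fit both genes whether or not strand was used. The summed level of the 17 genes was 664, 641 and 649 TPM in the DKK1-SE+/+ samples and 479, 505 and 480 TPM in the DKK1-SE-/- samples.

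Taken by their known regulator, 28 members are SREBP targets. Of the 18 of the sterol arm, 9 fell, 2 rose and 7 did not pass, with a median log2 fold change of -0.35. Of the 10 of the fatty acid arm, SCD included, 4 fell, 2 rose and 4 did not pass, with a median of -0.30. With the GC-content offset, 7 fell and 0 rose in the sterol arm, with a median of -0.10, and 4 fell and 2 rose in the fatty acid arm, with a median of -0.21. Without SCD, 12 of 27 SREBP targets fell, 4 rose and 11 did not pass, with a median of -0.33, and their summed level was 986 ± 23.5 TPM in DKK1-SE+/+ cells and 747 ± 8.61 TPM in DKK1-SE-/- cells (SD, n = 3). For the same 27 the offset gave 10 that fell and 2 that rose, with a median of -0.11. Among all tested genes 19.5% fell and 19.8% rose without the offset, with a median of 0.03, and 20.9% and 20.0% with it. The fold change of SCD was larger than that of every other SREBP target, FADS2 being the nearest.

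**Figure D3:**
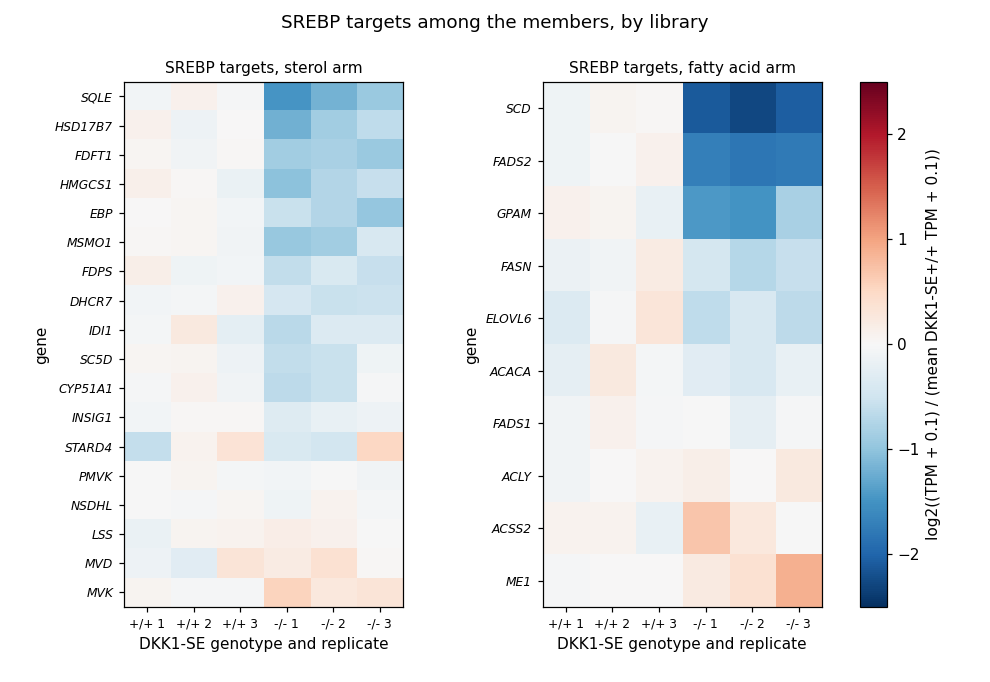
Heat map of the 28 SREBP targets (y axis) in each library (x axis), as the log2 ratio of TPM + 0.1 to the mean DKK1-SE+/+ TPM + 0.1. Blue is lower and red is higher. The median over the sterol arm was -0.58, -0.50 and -0.23 in the DKK1-SE-/- libraries 1 to 3, and over the fatty acid arm -0.36, -0.40 and -0.39.

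Of the LXR targets, 4 of 5 tested genes fell and 0 rose, beside 19.5% and 19.8% of all tested genes. Those that fell were SCD, which the question is about, SREBF1, ABCA1 and MYLIP. ABCA1, which exports cholesterol, was 1.97, 1.95 and 2.01 TPM in the DKK1-SE+/+ samples and 0.82, 0.92 and 0.95 TPM in the DKK1-SE-/- samples. Its replicates were tight in both groups, and it was 2.49-fold lower (log2 fold change -1.32, SE 0.17, edgeR adjusted p = 0.00016), with a log2 fold change of -0.65 on log2(TPM + 1), where low levels count for less. MYLIP, which marks lipoprotein receptors for breakdown, fell (-0.57, with the call lost without WT replicate 3 at -0.54), and NR1H3, which encodes LXR alpha, did not pass (0.15). NR1H2, which encodes LXR beta, rose from 28.0, 31.5 and 34.6 TPM to 51.3, 47.4 and 37.6 TPM (log2 fold change 0.56, SE 0.14, edgeR adjusted p = 0.0094), with 0.26 under the GC-content offset, and its call was lost without WT replicate 1 (0.51). STARD4, a sterol carrier, was at most 0.98 TPM and did not pass. The 5 tested genes of sterol transport and LXR had a median log2 fold change of -0.015, which was that of STARD4. STARD4 had 12 to 31 counts per sample, and the median lay further below 0 in each fit with a sample left out.

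In glycerolipid synthesis 1 of 5 genes fell (20.0%), 1 rose (20.0%) and 3 did not pass. These shares were close to the 19.5% and 19.8% of all tested genes. The median log2 fold change of the 5 was 0.38 (0.026 with the GC-content offset). GPAM, which adds the first acyl chain to glycerol phosphate, was 4.90, 4.78 and 4.01 TPM in the DKK1-SE+/+ samples and 1.62, 1.56 and 2.55 TPM in the DKK1-SE-/- samples, without overlap (log2 fold change -1.13, SE 0.17, edgeR adjusted p = 0.00052). AGPAT2, which adds the second chain, was 23.6, 24.8 and 28.6 TPM against 36.4, 34.6 and 24.7 TPM. One DKK1-SE-/- sample lay inside the DKK1-SE+/+ range, and AGPAT2 passed narrowly (log2 fold change 0.49, edgeR adjusted p = 0.0499), with the call held in only 3 of 15 alternatives. It was lost without WT replicate 1, 2 or 3 (0.41, 0.45 and 0.57) and without DKK1-SE-KO replicate 1 or 2 (0.34 and 0.40). With the GC-content offset the log2 fold change was 0.07, and AGPAT2 did not pass. DGAT1 and DGAT2, which finish triglyceride synthesis, and PNPLA3 did not pass, except that without DKK1-SE-KO replicate 3 DGAT1 (0.56) and DGAT2 (0.44) did, DGAT2 also without WT replicate 3 (0.51), and that PNPLA3 did with the GC-content offset (-0.50).

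For differentially expressed genes (DEGs) the study asked for an unadjusted p under 0.05 and a fold change of 1.2 or more. Its methods name no scale for that fold change, while the genes it lists as DEGs follow the log2 scale. On the log2 scale, 4 members were lower (SCD, FADS2, ACSL4 and ABCA1) and 2 higher (ACSL5 and ELOVL7), beside 3.70% and 4.96% of all tested genes. With the same limit on the linear scale, 26 were lower and 12 higher, beside 23.3% and 24.3%. Of the 28 SREBP targets, 2 were lower and 0 higher on the log2 scale, and 16 were lower and 5 higher on the linear scale.

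GC content moved with the fold changes. Over all tested genes, those with GC-poor exons had lower log2 fold changes (Spearman's rho across genes 0.40, and 0.36 across the 52 tested members; genes share libraries and are not independent replicates). The median GC content was 46.3% for the members that fell, 56.1% for those that rose and 52.2% for those that did not pass. With a GC-content offset per library, 22 members fell and 6 rose, beside 20.9% and 20.0% of all tested genes, and the member median was -0.12 in place of -0.32. Of the 22 that fell without the offset, 20 also fell with it. MSMO1 and SC5D, both with GC-poor exons, no longer passed (-0.13 and -0.03), and SREBF2 and PNPLA3 did. MVK (0.28), MVD (0.09) and AGPAT2 (0.07), with GC-rich exons, no longer passed. ACSL4 (-0.76), ACSL3 (-0.67), HMGCS1 (-0.37), ELOVL2 (-0.30) and ELOVL5 (-0.28) were among those with smaller falls, SCD (-2.01) and SQLE (-1.003) differed little from their values without it, and FADS2 (-1.98), FASN (-0.81), SREBF1 (-0.93), SCAP (-0.72), FDPS (-0.63) and DHCR7 (-0.60) were among those with larger falls. ME1 had a larger rise (1.02). The cause of the GC relation was not tested.

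**Figure D4:**
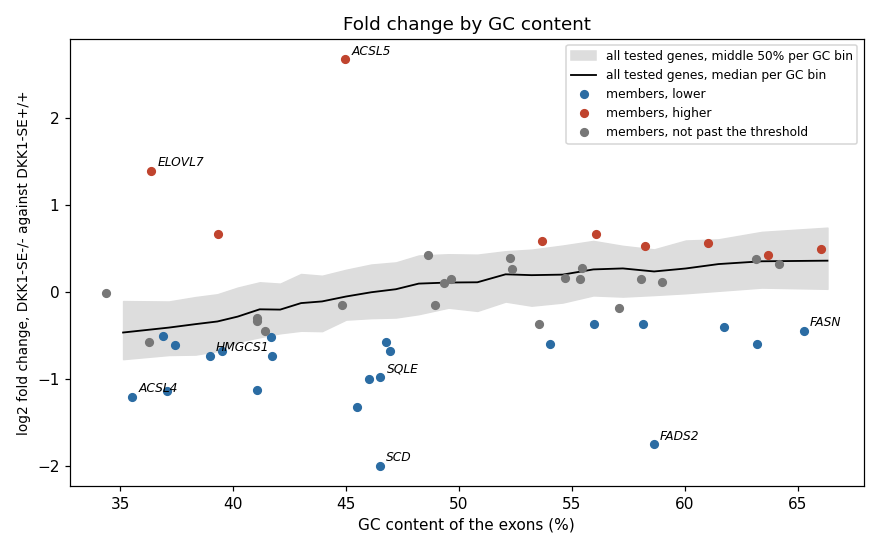
Log2 fold change (y axis) against the GC content of the exons (x axis) for the 52 tested members, over the median and middle 50% of all tested genes in bins of GC content. Members that fell run from ACSL4 at 35.5% to FASN at 65.3% GC, and SCD, FADS2 and SQLE lie below the band of all genes.

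SCD lies on chromosome 10, the chromosome of DKK1. Of the 97 tested genes within 5 Mb of SCD, 42 fell and 1 rose, and their median log2 fold change was -0.45, beside -0.29 over the 490 tested genes of the chromosome outside that window. Only 1 of the 97 had a lower log2 fold change than SCD. ERLIN1, a gene of the other lists read below, is among the 97 and fell (-0.59). GPAM lies on the same chromosome, where 19 of 28 tested genes within 5 Mb of it fell and 4 rose, with a median of -0.73. ACSL5 lies near GPAM and rose, while 21 of the 30 tested genes within 5 Mb of it fell and 3 rose (median -0.78). For IDI1, on the same chromosome, 5 of 21 fell and 0 rose, with a median of -0.28. SQLE and FDFT1 lie on chromosome 8, where 19 of 35 and 12 of 27 tested genes within 5 Mb of each fell and 2 and 2 rose, with medians of -0.55 and -0.58, and of -0.31 and -0.71 with the GC-content offset. Outside either window, the median over the tested genes of chromosome 8 was 0.02. FADS2 lies on chromosome 11 (ENSG00000134824, chr11:61792980-61867354, plus strand). The 215 tested genes within 5 Mb of it had a median log2 fold change of 0.51, with 5 that fell and 109 that rose. Their median was 0.34 with the offset. Over the 624 tested genes of the chromosome outside that window, the median was 0.03 without the offset. FADS3 and the oxysterol-binding protein gene OSBP, which rose (0.66 and 0.77), lie within 5 Mb of FADS2. FADS1 (0.10) and TM7SF2 (0.32), which did not pass, lie in the same window, both below its median. The part of these regional differences in the values of SCD, ERLIN1, GPAM, ACSL5, IDI1, SQLE, FDFT1, FADS1, FADS2, FADS3, TM7SF2 and OSBP was not tested.

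**Figure D5:**
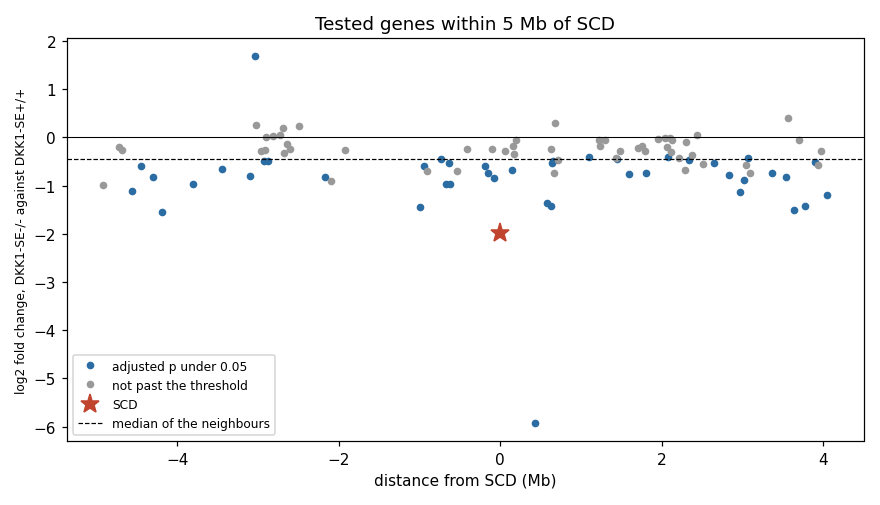
Log2 fold change (y axis) of the 97 tested genes within 5 Mb of SCD by distance from SCD (x axis, Mb). Blue points passed the threshold, the star is SCD at -1.99, and the dashed line is the median of the neighbours, -0.45.

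Other genes of lipid metabolism were read from lists of their own, beside the 19.5% that fell and 19.8% that rose among all tested genes. Of 14 genes that cleave SREBP, handle sterols or serve acyl-chain steps, 7 fell, 2 rose and 5 did not pass. Among the 7, ACAT2 (log2 fold change -0.41) held its call in 11 of 15 alternatives and did not pass with the GC-content offset (-0.20). Also among them was ERLIN1 (-0.59), which lies within 5 Mb of SCD. NPC1, which moves cholesterol out of lysosomes, was one of the 2 that rose (log2 fold change 0.30, -0.05 to 0.37 over the alternatives), with overlapping groups and the call held in 1 of 15 alternatives. HACD3, a dehydratase of chain elongation, was 71.7, 66.0 and 67.3 TPM in the DKK1-SE+/+ samples and 35.6, 40.6 and 44.8 TPM in the DKK1-SE-/- samples (log2 fold change -0.63, edgeR adjusted p = 0.00080). OSBP, an oxysterol-binding protein, rose from 16.3, 17.3 and 15.7 TPM to 24.1, 23.4 and 29.7 TPM (0.77, edgeR adjusted p = 0.00026). Both genes separated the groups in every sample. Of 12 genes of fatty acid oxidation, 2 fell (16.7%), 1 (HADH, in 11 of 15 alternatives) rose (8.33%) and 9 did not pass, with a median log2 fold change of -0.08. ACADM and ACADVL, the medium-chain and very-long-chain acyl-CoA dehydrogenases, were the ones that fell (-0.76 and -0.44).

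Of 9 genes of lipid droplets and lipid uptake, 8 were tested, 1 fell, 2 rose (HILPDA, and LRP1 in 6 of 15 alternatives) and 5 did not pass. HILPDA, a hypoxia-induced droplet protein that inhibits lipolysis, rose from 6.64, 7.89 and 9.69 TPM to 14.9, 15.7 and 16.9 TPM (log2 fold change 1.15, SE 0.15, edgeR adjusted p = 0.00022). ABHD5, an activator of lipolysis, fell (-0.68), with the call held in 11 of 15 alternatives. Among those that lost it were the GC-content offset (-0.21) and limma on log2(TPM + 1) (-0.62). CD36, a fatty acid transporter, was at most 0.05 TPM.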

How the data were processed

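Expected counts and TPM per gene were measured in 3 DKK1-SE+/+ and 3 DKK1-SE-/- samples. The authors deposited estimated counts, which were expected counts not normalized and not always whole, and TPM that they had normalized within each library. The submitters' processing notes name the build hg38, while the aligner, counting program, annotation and use of strand are not given in the sources used here. The deposited comparison (linear and log2 fold changes, p-values, adjusted p-values and calls), the group means and the annotation columns were not used.

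Counts were rounded and analysed with edgeR 4.0.16 (R 4.3.3): filterByExpr with a minimum count of 10, TMM normalization, and a quasi-likelihood F test of DKK1-SE-/- against DKK1-SE+/+, with Benjamini-Hochberg adjustment over all 15179 tested genes. The SE was the absolute log2 fold change over the square root of F. The exact permutation test used scipy. P-values measure only the spread between samples of 1 subclone and its control. Total counts per sample were 21822314, 16475810 and 18803154 (WT) and 17359835, 20098086 and 17804764 (DKK1-SE-KO). Samples of 1 group correlated at 0.98 to 0.99, and samples of different groups at 0.953 to 0.968 (log2(TPM + 1), across genes). Positions, exons and GC content came from GENCODE 44, in which 62625 of 62703 identifiers were placed.

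Alternatives were the RLE method, library size alone, DESeq2 1.42.0, no filter, limma 3.58.1 on log2(TPM + 1) and log2(TPM + 0.1), the replicate number as a block, each sample left out, an adjusted p under 0.01, and, for DEGs, the limit of 1.2 as a linear fold change in place of a log2 fold change. A GC-content offset in 40 bins, with or without the block, was added after seeing the data. The code was tested on simulated data. Members and lists were chosen with earlier results of these data known. Genes were named by a rule: DKK1, SCD, members past the threshold and 1 or more from 0 on the log2 scale, the smallest p and the highest TPM of each role, and a list of 14 pathway genes; of each other list, the 2 genes with the smallest p. Genes named beyond this rule complete the account and were named after their values were seen.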

Additional observations from a re-analysis of the deposited data

How the results depend on the processing

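SCD fell in all 15 alternatives (log2 fold change -2.14 to -1.95, highest adjusted p 1.53e-05), and 15 members fell and 1, ELOVL7, rose in every one. With the GC-content offset, chosen after seeing the data, the members' median was -0.12, that of genes near SCD -0.53, and those of fatty acid synthesis 0.028, mevalonate and cholesterol synthesis -0.11 and glycerolipid synthesis 0.026. With the offset and the replicate block they were -0.12, -0.54, 0.026, -0.11 and 0.016. With library size alone the members' median was -0.39 and that near SCD -0.52. With limma on log2(TPM + 0.1), 2 members rose, and the medians were -0.39 for the members, -0.56 near SCD, 0.070 for fatty acid synthesis, -0.31 for desaturases and elongases and 0.11 for glycerolipid synthesis. With log2(TPM + 1), 3 rose, 0 were up-regulated DEGs (2 by edgeR), and the last 3 medians were 0.064, -0.25 and 0.10. The median of all tested genes was -0.11 and -0.08 on these TPM scales and 0.03 in edgeR; relative to it, the members' median was -0.28, -0.26 and -0.35. At an adjusted p under 0.01, 5 members rose. With a linear fold change of at least 1.2, 26 were down-regulated and 12 up-regulated DEGs. FADS1 turned negative with the offset (-0.015), with offset and block (-0.017), and on both TPM scales (-0.083 and -0.081). Leaving out each sample gave 17 to 27 members that fell, 4 to 13 that rose, and medians of -0.37 to -0.27 for the members, -0.47 to -0.32 for SREBP and its control and -0.53 to -0.11 for sterol transport and LXR (-0.015 with all samples). With the replicate block, 19 members fell and 7 rose (SCAP, FDPS, DHCR7, MVD and AGPAT2 no longer passed), and 4981 genes passed in place of 5972. Deviations of same-numbered samples correlated at -0.12, -0.07 and -0.11 across genes, so the samples share only a number, and no sample correlated best with its own number. The 15 alternatives leave out the adjusted p under 0.01 and the linear limit for DEGs, which change only a threshold. Over the 52 tested members and these 15 alternatives, 69 calls were lost and 22 gained. The cause was not tested. The depth leaves genes of a few counts, such as ACSL5 and ABCG1, imprecise, and with 3 samples a group no single value reaches an exact p under 0.1.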
